A study of Mus musculus with 21 samples.

Results

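The genes described here code for the proteins of the cytosolic ribosome. They were chosen by name: every gene whose symbol is Rpl or Rps followed by a number, with an optional a, x, y or l, or Rplp0 to Rplp2, with S6 kinases and pseudogenes left out. Of 64 such probes on the arrays, 55 were kept because they were detected (detection p under 0.05) on at least 3 arrays, and they represented 46 of the 10112 genes tested, 29 of the large subunit and 17 of the small subunit. The choice used detection only, not the change between stages. The 9 probes not kept were those of Rpl17, Rpl39l, Rpl3l, Rpl6 and Rps23 and further probes of Rpl23, Rpl37 and Rplp0. The probe of Rpl14, detected on 7 arrays, was the member gene closest to the limit from inside, and Rpl3l, detected on 2 arrays, was the closest from outside.

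A cytosolic ribosome joins a small subunit, which reads the mRNA, to a large subunit, which forms the peptide bond. Each subunit is built in the nucleolus from ribosomal RNA and one copy of most of these proteins, so their mRNAs are commonly made in step. Many of the mRNAs begin with a run of pyrimidines, the 5' terminal oligopyrimidine (TOP) sequence, through which the mTOR kinase controls their translation. In the ovary, the growing oocyte makes and stores ribosomes and mRNA for the embryo, while the granulosa cells around it divide and need ribosomes of their own.

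The samples were female CD1 mice at 7 stages with 3 arrays each, and RNA was pooled within a sample. PMD3 and PMD4 were whole ovaries of postnatal days 3 and 4, rich in primordial follicles, and so hold all cells of the ovary. PRIMARY (day 10, 70 to 90 µm across), two-layer secondary or TLS (day 12, 100 to 130 µm), multilayer secondary or MLS (day 16, 150 to 180 µm) and PREANTRAL (day 18, 200 to 300 µm) were follicles taken out of the ovary. ANTRAL follicles (day 20, 400 to 600 µm) came from mice that the source names describe as given pregnant mare serum gonadotropin (PMSG), although the treatment protocol states none, so stage and hormone cannot be told apart. Other labels conflict: the array titled PREANTRAL repeat 2 carries an antral source name, day 20 and 400 to 600 µm, PRIMARY repeat 3 the stage tag PMD3, and ANTRAL repeat 2 a description as repeat 3, while TLS repeat 2 and PRIMARY repeat 3 have ovary as their tissue. Titles set the groups, and the 2 antral arrays that share a column name are called repeats a and b. Whether a stage's 3 samples came from different animals is not stated, so the p-values cover the spread among these samples and no more, which may be technical.

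Each array had 12363 to 13953 detected probes where its own detection p was used (19 arrays), and median signals ran from 91.5 to 143. Oocyte markers (8 tested, such as Gdf9 and Zp3) summed to 13333 to 19504 units of normalised signal on PREANTRAL arrays and 96471 to 101496 on PRIMARY arrays, so they moved strongly with stage. A pair of arrays stood apart most from their stage in the ribosomal genes. The SD of the members' differences from the other 2 arrays of the stage was 0.40 for TLS repeat 2 and 0.35 for PMD3 repeat 2. It was 0.33 for TLS repeat 3, whose comparison includes repeat 2, and at most 0.25 on the remaining arrays. Among the 46 members, the difference of PMD3 repeat 2 from the other PMD3 arrays and that of TLS repeat 2 from the other TLS arrays had a correlation of 0.712 across genes, which are not independent replicates. By rank it was 0.495, and the differences had the same sign in 27 of the 46 members and exceeded 0.5 in size on both arrays in 3. In these 3 the differences were 1.22 and 1.05 on the log2 scale for Rps27l, -1.17 and -1.04 for Rpl29 and -0.65 and -0.92 for Rplp0. Counts without these arrays are given where they change a result.

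Over the stages the ribosomal protein genes varied less than most genes in the quantile-normalised signal, an order that did not hold in the log2 values deposited by the authors. A moderated F test (limma, Benjamini-Hochberg over all genes) called 17 of the 46 members different (adjusted p under 0.05), against 66.6% of all genes. The median distance between a member's highest and lowest stage mean was 0.45 on the log2 scale, and over all genes it was 0.94. In the authors' values 71.7% of the members and 64.3% of all genes differed, and the median ranges were 0.46 and 0.47. The highest stage mean fell in TLS for 11 members, in MLS for 11, in PREANTRAL for 10, in PMD3 for 6 and in PMD4 for 5. For the other 3 members the highest mean was shared (equal within 1e-06), by TLS and MLS for Rpl38 and Rpl41 and by PRIMARY and PREANTRAL for Rplp1. By the probe used for each gene, no member had its highest mean in ANTRAL follicles, where 2411 of all 10112 genes did. The dimmer kept probes of Rps19 and Rpl29, not used in these counts, were highest there. Among all genes the highest mean fell in TLS for 800, in MLS for 603, in PREANTRAL for 1858, in PMD3 for 1721 and in PMD4 for 969. The members' counts include those that did not pass the F test, whose highest stage rests on small differences in some. Of the large subunit 10 of 29 members differed over the stages, and of the small subunit 7 of 17. Over the 21 arrays the median correlation between 2 members was 0.26, against -0.0016 between 2 of all genes, which describes arrays that share stage and processing.

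**Figure D1:**
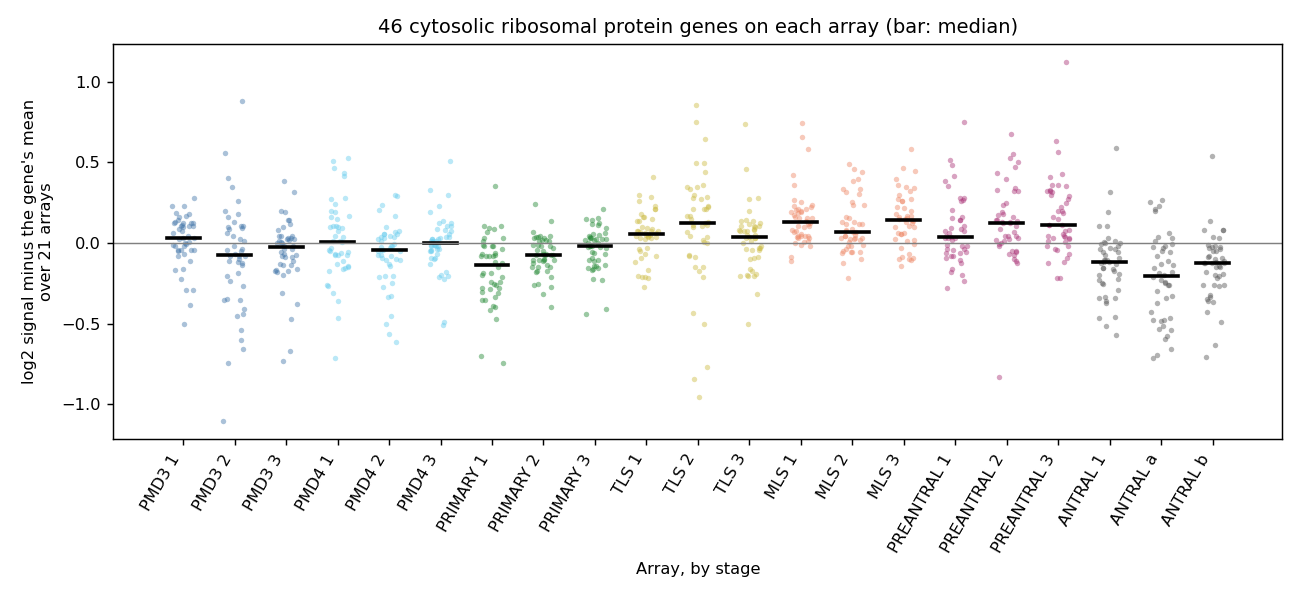
Each point is 1 of the 46 ribosomal protein genes on 1 array: its normalised log2 signal minus its mean over the 21 arrays (y axis), with arrays in stage order (x axis) and a bar at the median. The medians of the 9 TLS, MLS and PREANTRAL arrays lie between 0.04 and 0.15, and those of the 3 ANTRAL arrays between -0.20 and -0.12.

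On single arrays the members' median deviation from their own means was 0.04 to 0.13 in TLS, 0.07 to 0.15 in MLS, 0.04 to 0.13 in PREANTRAL and -0.20 to -0.12 in ANTRAL follicles. It was -0.14 to -0.02 in PRIMARY follicles, -0.04 to 0.01 in PMD4 ovaries and -0.07 to 0.03 in PMD3 ovaries. The 9 secondary and preantral arrays thus did not overlap with the 3 antral ones or the 3 primary ones. Of the 46 members, 7 to 10 lay above their own mean on an antral array, against 27 to 36 on a preantral one.

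The 5 members with the widest range were all proteins of the large subunit. Rpl30, an RNA-binding protein of that subunit, had the widest range, 1.22 (adjusted p = 0.000281, F test). Its signal was 9.69, 10.22 and 10.29 in PRIMARY, 10.45, 10.35 and 9.93 in TLS, 10.66, 10.89 and 10.60 in MLS, 11.18, 11.11 and 11.55 in PREANTRAL and 10.44, 9.90 and 10.35 in ANTRAL follicles. All 3 preantral arrays lay above every other array of the series, whole ovaries included. Rpl13a, which is widely used as a reference gene in quantitative PCR, had a range of 1.14 (adjusted p = 8.73e-06). Its stage means were 10.71 ± 0.20 in PMD3, 10.84 ± 0.13 in PMD4, 11.07 ± 0.13 in PRIMARY, 11.43 ± 0.27 in TLS, 11.63 ± 0.19 in MLS, 11.86 ± 0.11 in PREANTRAL and 11.78 ± 0.21 in ANTRAL samples (SD, n = 3 each). It was lowest in whole ovaries and highest in preantral follicles, and each pair of neighbouring stages overlapped.

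Rpl27a, a large-subunit protein, ranged by 1.00 (adjusted p = 0.000862), with 9.84, 9.99 and 10.05 in PMD4, 10.28, 11.20 and 10.82 in TLS and 10.83, 11.06 and 10.98 in PREANTRAL samples. The high TLS value was that of repeat 2, 1 of the 2 arrays that stood apart. Rpl22, which in mice is needed for the survival of developing T cells, ranged by 0.95 (adjusted p = 4.37e-05) in another order. It was highest in whole ovaries (11.08, 11.41 and 11.24 in PMD3, 11.29, 11.16 and 11.18 in PMD4) and lowest in ANTRAL follicles (10.39, 10.26 and 10.22), and the 6 ovary arrays lay above all 15 follicle arrays. Rpl24, which carries the mutation of the mouse belly spot and tail strain, ranged by 0.93 (adjusted p = 0.0162). It had 13.39, 13.29 and 13.39 in MLS and 12.47, 12.09 and 12.71 in ANTRAL follicles, but its PMD3 arrays alone spanned 12.15 to 13.04, so the range of its means is not far from the spread within a stage.

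**Figure D2:**
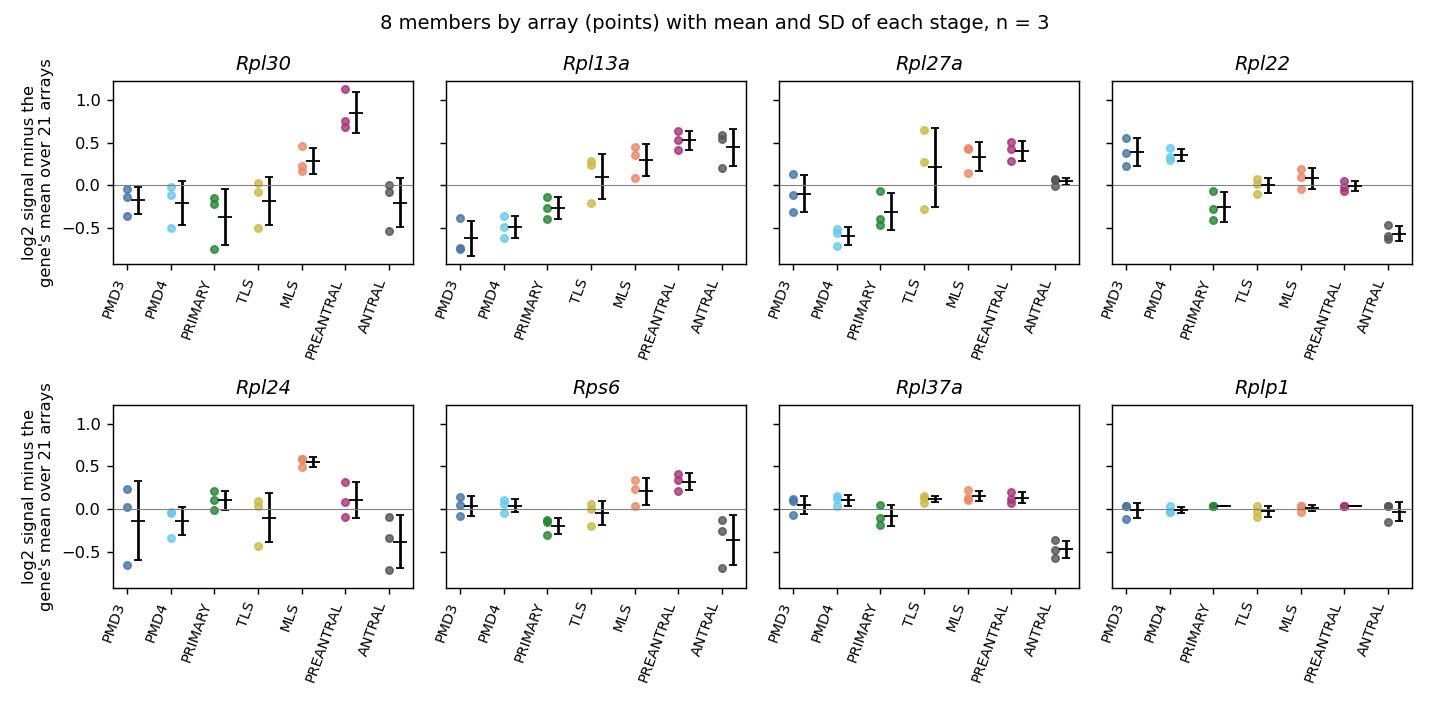
The 8 panels show 1 member each, with the normalised log2 signal minus the gene's mean over 21 arrays (y axis) by stage (x axis); points are arrays and bars the mean and SD of 3 arrays. Rpl30 peaks in PREANTRAL, Rpl13a is higher on every array from TLS on than in whole ovaries, Rpl22 and Rpl37a are lowest in ANTRAL, and Rplp1 hardly moves.

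The 5 members with the narrowest ranges were Rplp1 (0.06), Rpl41 (0.14), Rps12 (0.16), Rpl38 (0.19) and Rps19 (0.21). For Rpl38 and Rps19 this is the range of the brighter of 2 kept probes. Their dimmer probes, detected on 21 arrays, did differ over the stages (adjusted p = 0.000134 and 6.04e-06, F test over all probes). Rplp1 is a protein of the stalk that calls translation factors to the ribosome, Rpl41 is the shortest ribosomal protein, Rpl38 is lost in the tail-short mouse and RPS19 is mutated in human Diamond-Blackfan anaemia. All 5 had mean signals above 14 on the log2 scale, and of the 17 members above that level none passed limma's F test, with 1 (Rpl39) at an unadjusted p under 0.05. By contrast, 11 of the 19 members between 12 and 14 did, as did 6 of the 8 between 8 and 12 and neither of the 2 dimmer ones, Rpl14 and Rpl21. Signal is that of a probe, and its height says nothing of how abundant 1 mRNA is beside another.

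This flatness depended on the scaling. Rplp1 stood at 15.13 on 14 of the 21 arrays, which is the highest value that quantile normalisation assigns, so a difference between those arrays could not appear. Without quantile normalisation, when arrays were only scaled to a common median, the range of Rplp1 was 0.37 (adjusted p = 0.569) and the median range of the 17 bright members was 0.44 instead of 0.23, yet none passed the F test. In the log2 values deposited by the authors 12 of the 17 passed it, with a median range of 0.37. With those values 33 of the 46 members differed over the stages (71.7%, against 64.3% of all genes), and with median scaling 8 did (17.4%, against 60.6% of all genes). The 29 other members had a median range of 0.58 in the authors' values, where that of all genes was 0.47. Beside the bright members stood 11 other genes with means above 14, of which 4 passed the F test.

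**Figure D3:**
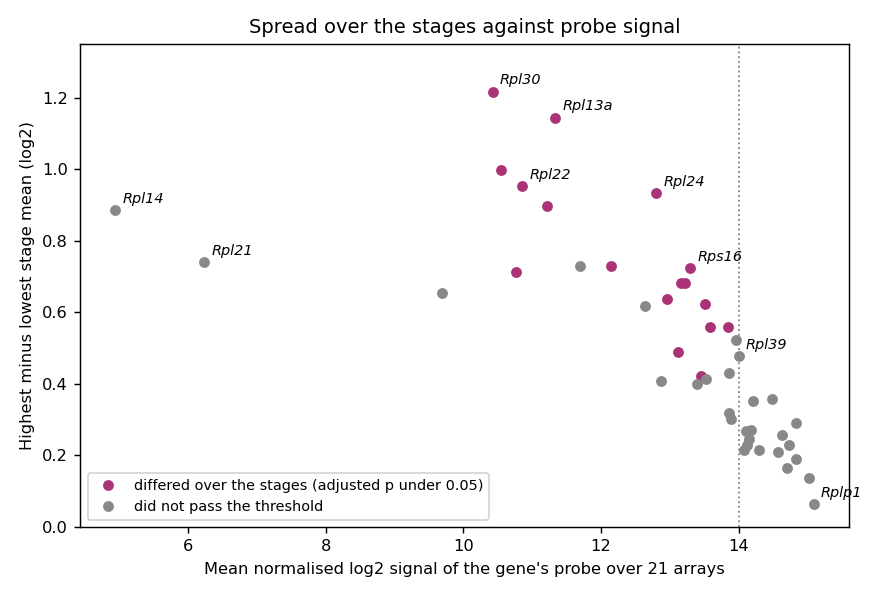
Each point is 1 member, with the mean normalised log2 signal of its probe over 21 arrays (x axis) and the highest minus the lowest stage mean in log2 units (y axis); coloured points passed the F test. To the right of the dotted line at 14 the ranges stay under 0.48, and none of the 17 members passed.

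In the comparisons that include whole ovaries few of these genes passed the test. Between PMD4 and PMD3 ovaries no member passed limma's moderated test, and 3 of 46 had an unadjusted p under 0.05. Only 1.27% of all genes passed, so this count is near the share over all genes and says little about the members. Between PRIMARY follicles and PMD4 ovaries 4 members fell and none rose, beside 15.8% of all genes that fell and 15.5% that rose. Rpl21, of the large subunit, had 5.54, 6.28 and 5.80 in PRIMARY and 6.75, 6.34 and 6.75 in PMD4 samples (log2 fold change -0.74, SE 0.25, adjusted p = 0.0282). Rpl22 had 10.57, 10.78 and 10.45 in PRIMARY and 11.29, 11.16 and 11.18 in PMD4 samples (-0.61, SE 0.14, adjusted p = 0.00171). Rps15, whose tail reaches the decoding centre, had 13.06, 12.81 and 12.99 in PRIMARY and 13.59, 13.36 and 13.32 in PMD4 samples (-0.47, SE 0.16, adjusted p = 0.0243). Rps7, of the small subunit, was the fourth, at -0.43 (SE 0.13, adjusted p = 0.0155). In each of the 4 genes the groups did not overlap, but 1 call was left without PMD4 repeat 1, 2 without PRIMARY repeat 1 or without PRIMARY repeat 3, and 1 (Rpl21) with median scaling. Summed markers of cell types moved in the same step: stroma markers were 6216 to 9915 in PRIMARY and 23767 to 26520 in PMD4 samples, granulosa markers 32163 to 35576 and 14888 to 16617, oocyte markers 96471 to 101496 and 64621 to 69468, and endothelium markers 434 to 663 and 2919 to 3098. Within the oocyte list Bmp15, Gdf9, Zp1 and Zp3 rose, but Figla fell by 2.38 (adjusted p = 5.18e-08, limma's test). Ooep, Nlrp5 and Nobox did not pass the threshold. The part of cell makeup in the falls of the ribosomal genes was not tested, and in such bulk samples fewer cells of a type cannot be told apart from less RNA per cell.

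From PRIMARY to TLS follicles 39 of 46 members had a positive fold change, with a median of 0.16 on the log2 scale against -0.02 over all genes. None passed the moderated test, where 7.25% of all genes did, and 4 members had an unadjusted p under 0.05. With median scaling the median of the members was 0.02 and that of all genes -0.16, so the distance between the 2 medians was alike under both scalings. Rps27l, the relative of Rps27 that p53 induces, had 12.66, 13.73 and 12.68 in TLS and 12.54, 12.60 and 12.71 in PRIMARY follicles, so that only TLS repeat 2 was clearly high. No member passed the test between MLS and TLS (3.27% of all genes; 3 members with an unadjusted p under 0.05) or between PREANTRAL and MLS follicles (15.4%; 3 members). The medians of the members were 0.03 and -0.04 in these comparisons, against 0.02 over all genes in both.

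**Figure D4:**
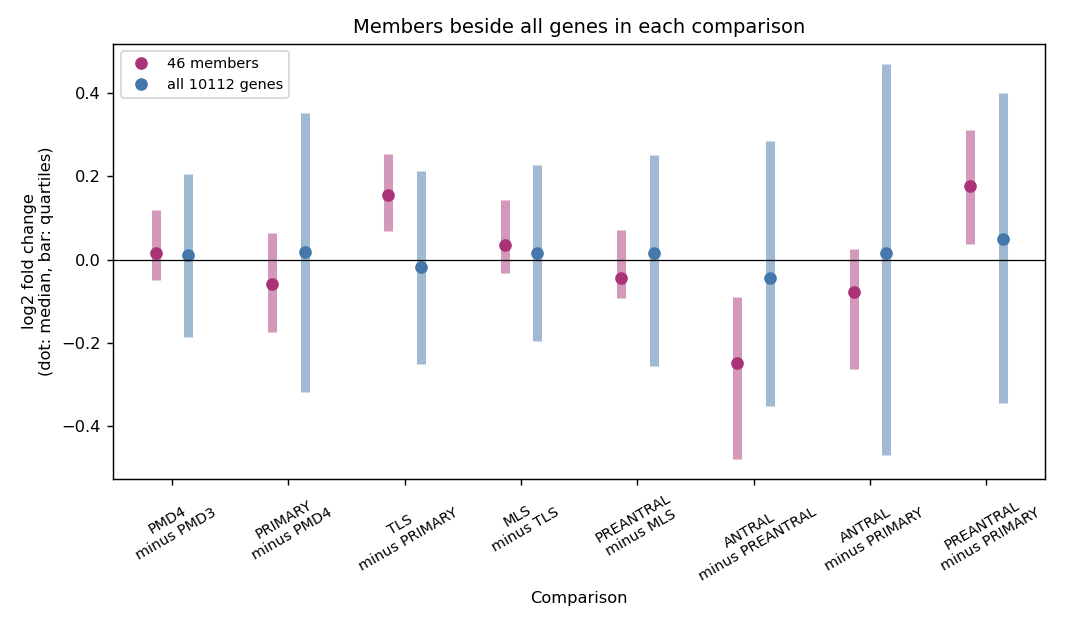
For each comparison (x axis), dots give the median and bars the quartiles of the log2 fold change (y axis) of the 46 members and of all 10112 genes. The members' median is 0.16 in TLS minus PRIMARY and -0.25 in ANTRAL minus PREANTRAL, where those of all genes are -0.02 and -0.04.

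Set against each other over the 3 steps, PREANTRAL and PRIMARY follicles differed in 8 members, all of them higher in PREANTRAL, beside 18% of all genes that rose and 17.8% that fell. The count of rises is near the share over all genes, while no member fell. This comparison was added after the stage means had been seen. In 21 of the 46 members all 3 preantral arrays lay above all 3 primary ones, as they did in 28.5% of all genes, and in none did they all lie below, as they did in 24.8% of all genes. The median of the members was 0.18 and that of all genes 0.05. Rpl30 rose most, by 1.22 (SE 0.21, adjusted p = 7.11e-05; 2.33-fold). Rpl13a rose by 0.79 (SE 0.17, adjusted p = 0.000861), with 11.74, 11.86 and 11.97 in PREANTRAL and 10.94, 11.07 and 11.19 in PRIMARY follicles. Rpl27a rose by 0.71 (SE 0.19, adjusted p = 0.00551). The other 5 were Rpl7a (0.62), Rpl36al (0.56), Rps6 (0.52), Rpl4 (0.50) and Rps3 (0.41). Rps6 is the small-subunit protein that S6 kinase phosphorylates downstream of mTOR, and Rps3 lies where the mRNA enters the subunit. The count was 3 without PRIMARY repeat 1, 5 without PREANTRAL repeat 3, 5 without both arrays of conflicting labels (PREANTRAL repeat 2 and PRIMARY repeat 3) and 2 with median scaling, where Rpl13a and Rpl30 were left. Summed oocyte markers were lower in PREANTRAL follicles (given above). The sum of the surface epithelium markers was lower as well, at 808 to 909 in PREANTRAL and 959 to 1227 in PRIMARY follicles. Within that list only Krt8 and Krt18 were lower, while Upk3b, Upk1b, Krt19 and Krt7 were higher in PREANTRAL follicles. The sums of the granulosa, theca, stroma, endothelium and leukocyte lists were higher. Granulosa markers summed to 59629 to 67920 in PREANTRAL and 32163 to 35576 in PRIMARY follicles, theca markers to 2514 to 4028 and 598 to 1131, stroma markers to 12647 to 18464 and 6216 to 9915, endothelium markers to 2030 to 2768 and 434 to 663, and leukocyte markers to 197 to 278 and 158 to 187. Some genes went against the sum of their list. Amhr2 of the granulosa list fell by 0.83 (adjusted p = 8.87e-05, limma's test). Amh had -0.94 (adjusted p = 0.165) and Col1a2 of the stroma list -0.17 (adjusted p = 0.649). Fold changes were also negative for Foxl2 (granulosa), Pdgfra (stroma), Ptch1 (theca) and Cd52 (leukocyte). Insl3 of the theca list, Cdh5 of the endothelium list and Cd52 and Lyz2 of the leukocyte list were not detected on any PRIMARY array. The same held for Upk1b and Krt19 of the surface epithelium list. The part of these cells in the rise of the 8 members was not tested.

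The antral stage brought the most calls of any neighbouring stages. Against PREANTRAL follicles 14 of 46 members fell and none rose in ANTRAL follicles, beside 14.7% of all genes that fell and 13% that rose. The median of the members was -0.25 and that of all genes -0.04, and 41 members had a negative fold change. In 25 members all 3 antral arrays lay below all 3 preantral ones, where 24.6% of all genes did so, and in none did all 3 lie above, where 20.4% of all genes did. Of the 14, 8 were large-subunit genes (Rpl14, Rpl22, Rpl30, Rpl31, Rpl35a, Rpl36al, Rpl37a, Rpl39) and 6 small-subunit genes (Rps16, Rps25, Rps27, Rps3, Rps6, Rps9).

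Rpl30 had 10.44, 9.90 and 10.35 in ANTRAL and 11.18, 11.11 and 11.55 in PREANTRAL follicles, a fall by 1.05 (SE 0.21, adjusted p = 0.000526; 2.07-fold lower). The highest antral array lay below the lowest preantral one. Rps6 had 13.09, 12.53 and 12.96 in ANTRAL and 13.43, 13.56 and 13.63 in PREANTRAL follicles, a fall by 0.68 (SE 0.16, adjusted p = 0.00212). Rps25, known for its role in initiation at internal entry sites, had 11.64, 11.96 and 11.44 in ANTRAL and 12.23, 12.29 and 12.48 in PREANTRAL follicles, a fall by 0.66 (SE 0.17, adjusted p = 0.00493). Neither gene's groups overlapped. Rpl35a, a gene mutated in some human Diamond-Blackfan anaemia, had 12.62, 12.45 and 12.53 in ANTRAL and 13.02, 13.21 and 13.26 in PREANTRAL follicles, a fall by 0.63 (SE 0.14, adjusted p = 0.00155). Rpl37a, a zinc-binding protein of the large subunit, had 12.95, 13.04 and 13.16 in ANTRAL and 13.59, 13.64 and 13.72 in PREANTRAL follicles, a fall by 0.60 (SE 0.13, adjusted p = 0.00106). It was also lower in ANTRAL than on every other array of the series, the lowest of which was 13.33 in PRIMARY. Rpl14 was not detected on any antral array and was detected on all 3 preantral ones, so only a bound can be given: it was at least 1.16-fold lower in ANTRAL (adjusted p = 0.0354), a call that held under 4 of the 16 alternatives run for it. The remaining 8 fell by 0.42 (Rpl39, at the peptide exit tunnel, and Rps3) to 0.55 (Rpl22).

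**Figure D5:**
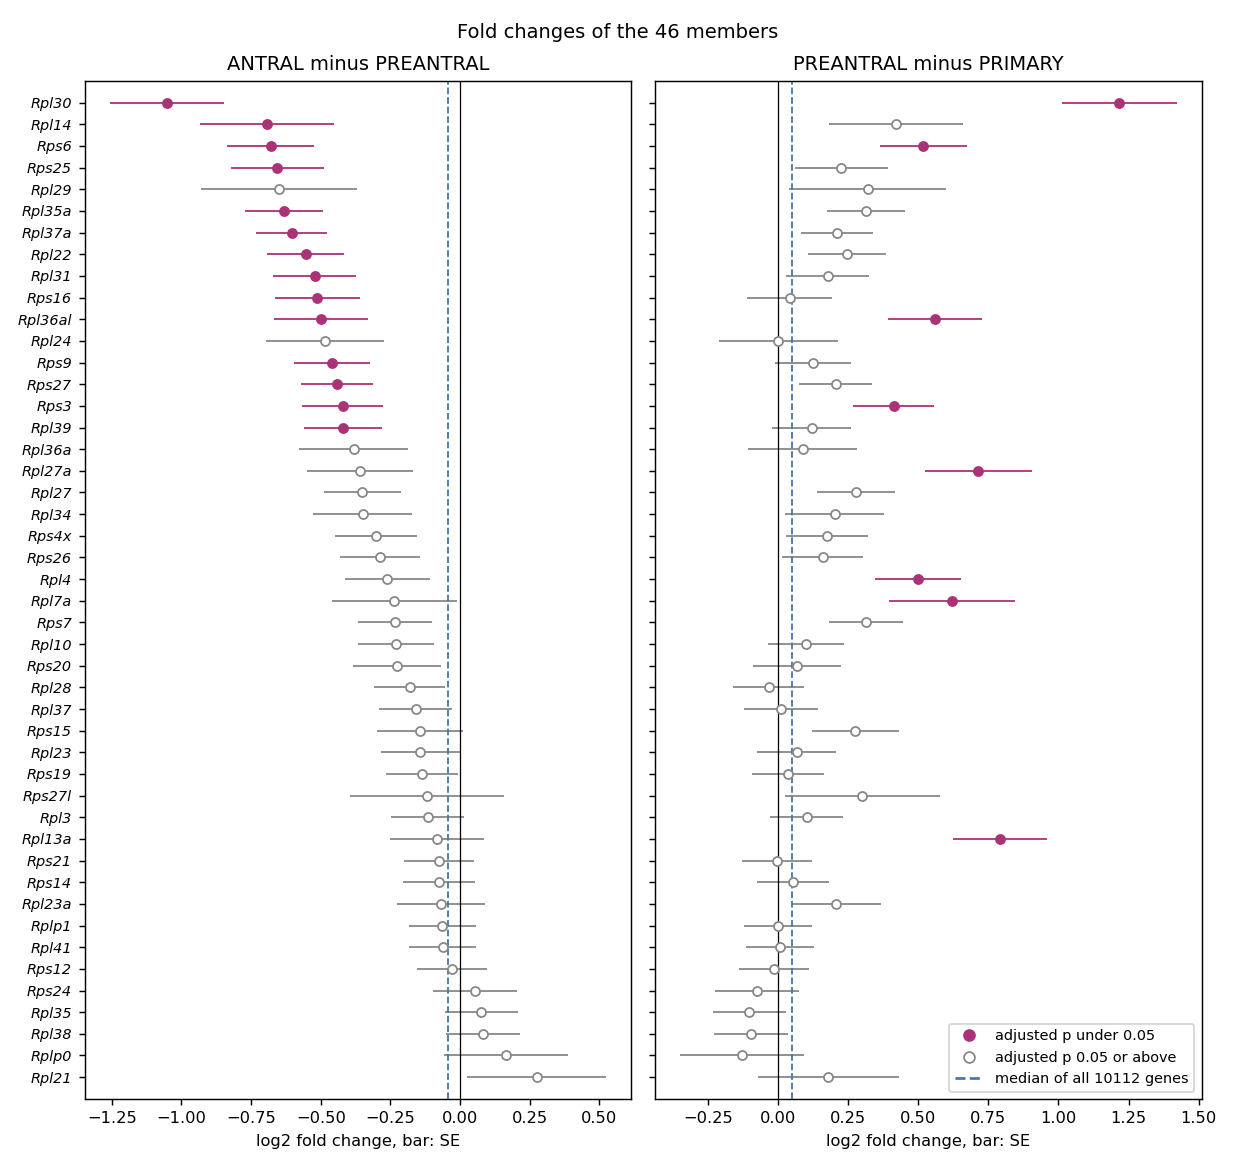
Each row is 1 of the 46 members, ordered by its change in ANTRAL minus PREANTRAL (left), with PREANTRAL minus PRIMARY on the right; x axes give the log2 fold change with its SE, and filled points passed at an adjusted p under 0.05. On the left 14 filled points lie below 0 and none above; on the right 8 lie above 0 and none below.

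The number of falls leaned on single arrays and on the scaling. It was 6 without PREANTRAL repeat 3, 7 without ANTRAL repeat a, 9 without PREANTRAL repeat 2 and 8 without PREANTRAL repeat 2 and PRIMARY repeat 3 together. With median scaling 4 were left (Rpl30, Rpl31, Rpl37a and Rps6), while the median of the members was -0.36 and that of all genes 0.03. In the values deposited by the authors 21 fell, 13 of them among the 14. No member rose under any of these settings. Several markers of cell type moved in the same step. Oocyte markers summed to 4218 to 8079 in ANTRAL and 13333 to 19504 in PREANTRAL follicles, theca markers to 9993 to 10566 and 2514 to 4028, endothelium markers to 4288 to 5118 and 2030 to 2768, and stroma markers to 19444 to 21031 and 12647 to 18464. Each sum is over the tested markers of a list: 8 of 9 for oocyte, 8 of 9 for granulosa, 6 of 6 for theca, 7 of 7 for stroma and 6 of 7 for endothelium. Leukocyte markers (3 of 7 tested, with Cd52 and Lyz2 not detected on any PREANTRAL array) summed to 625 to 719 in ANTRAL and 197 to 278 in PREANTRAL follicles, and granulosa markers, which overlapped, to 53861 to 72245 and 59629 to 67920. The sums hide single genes. In limma's test Amh fell by 3.78 (adjusted p = 8.65e-06) and Amhr2 by 1.19 (adjusted p = 1.92e-06). The other tested granulosa markers did not pass the threshold. In the theca list Cyp11a1 rose most, by 4.42 (adjusted p = 2.94e-10), and Hsd3b1 and Cyp17a1 also rose, but Insl3, Tcf21 and Ptch1 did not pass. Of the stroma list only Col1a2 passed (0.77, adjusted p = 0.026), and Dcn and Lum had negative fold changes. Figla and Nobox (oocyte), Cdh5 and Tek (endothelium) and Lyz2 (leukocyte) did not pass either. The part of cell makeup, and of the hormone, in the fall of the ribosomal genes was not tested.

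Over the whole span from PRIMARY to ANTRAL follicles 1 member rose and 4 fell, beside 23.3% of all genes that rose and 23% that fell. Rpl13a had 11.92, 11.53 and 11.87 in ANTRAL and 10.94, 11.07 and 11.19 in PRIMARY follicles, a rise by 0.71 (SE 0.17, adjusted p = 0.00156). Rps16 fell by 0.47, Rps25 by 0.43, Rpl37a by 0.39 and Rps9 by 0.34, and only in Rps25 did the groups overlap. The comparisons share arrays, so they are not independent of each other. The number of members past the threshold was 1 without PRIMARY repeat 3, 2 without ANTRAL repeat 1, 3 without PRIMARY repeat 2 or without ANTRAL repeat a, 9 without PMD3 repeat 2 and TLS repeat 2, and 13 in the authors' values.

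The start-site sequences were searched for the pyrimidine run to which the TOP class owes its name, which some of the genes that moved hold and others do not. RefSeq promoters (GRCm38.p6, 250 bases before to 50 after each listed start) were at hand for 38 of the 46 members. A run of at least 8 C or T on the gene's strand within 20 bases of a listed start was found in 20 of these 38 (52.6%), against 18.4% of the 27025 genes with a promoter. It was held by 8 of the 13 matched genes that fell in ANTRAL follicles and by 12 of the other 25. Rpl22, Rpl36al, Rpl37a, Rps16 and Rps3 fell without holding it. The letters CCGGAAG on either strand, which ETS factors such as GABP bind, stood in 36.8% of the members' windows and in 9.93% of all genes'. GGGCGG, bound by SP1, stood in 60.5% and 38.2%, and TATAAA in 10.5% and 15.7%. A match is a description of letters and not of a binding site, and listed starts can lie some bases from the true ones. Below are 20 bases before and 20 from the start onwards, 5' to 3', for genes that fell in ANTRAL follicles with such a run, in capitals (Rpl35a, Rps6, Rps9, Rps25), for 3 that fell without it (Rpl37a, Rps16, Rpl22) and for 2 that rose by the preantral stage (Rpl7a, Rpl27a).
Rpl35a (chr16:33056462-33056501, + strand): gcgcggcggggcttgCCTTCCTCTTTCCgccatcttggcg
Rps6 (chr4:86857348-86857387, - strand): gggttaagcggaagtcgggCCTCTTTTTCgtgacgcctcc
Rps9 (chr7:3704021-3704060, + strand): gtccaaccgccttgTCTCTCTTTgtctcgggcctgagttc
Rps25 (chr9:44407694-44407733, + strand): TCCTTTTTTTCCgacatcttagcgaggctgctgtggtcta
Rpl37a (chr1:72711240-72711279, + strand): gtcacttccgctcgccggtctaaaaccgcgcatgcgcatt
Rps16 (chr7:28350669-28350708, + strand): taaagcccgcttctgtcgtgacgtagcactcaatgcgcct
Rpl22 (chr4:152324416-152324455, + strand): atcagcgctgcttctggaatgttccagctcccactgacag
Rpl7a (chr2:26910787-26910826, + strand): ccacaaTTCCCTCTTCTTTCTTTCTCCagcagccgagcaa
Rpl27a (chr7:109519175-109519214, + strand): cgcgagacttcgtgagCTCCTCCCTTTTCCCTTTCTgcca
In Rps6, Rpl35a, Rps9, Rpl7a and Rpl27a the run spans the listed start, and in Rps25 it lies wholly before it. Other genes that fell in ANTRAL follicles or rose by the preantral stage hold a run but are not shown. It spans the start in Rpl14 and Rps27, lies before it in Rpl31 and Rpl4 and after it in Rpl13a. Rpl39 has separate runs before and after the start. For a gene with several listed starts, the start with the longest run was taken.

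Other comparisons within the family used pairs of relatives and genes with 2 probes. Rpl36a and Rpl36al code for almost the same protein. Rpl36al fell in ANTRAL by 0.50 (SE 0.17, adjusted p = 0.0312), and Rpl36a had a log2 fold change of -0.38 (SE 0.20, adjusted p = 0.161). Rps27 fell by 0.44 (SE 0.13, adjusted p = 0.0141), while Rps27l had -0.12 (SE 0.28, adjusted p = 0.806). Rpl22 fell, and its relative Rpl22l1 had a fold change of 0.62 (SE 0.40, adjusted p = 0.275) and was detected on 18 arrays, with no test of the difference between relatives made. Rpl39l and Rpl3l, testis- and muscle-rich relatives of Rpl39 and Rpl3, did not pass the detection limit. Rpl10 and Rps4x, whose relatives Rpl10l and Rps4l were not tested, had -0.23 and -0.30 in this comparison and Rpl3 -0.11, none past the threshold. Of the usual reference genes, Rplp0 had 9.80, 9.68 and 9.72 in ANTRAL and 9.45, 9.68 and 9.57 in PREANTRAL follicles. It did not pass the F test over the stages (adjusted p = 0.235), yet its stage means ranged by 0.65. On PMD3 repeat 2 and TLS repeat 2 it differed from the other arrays of the stage by -0.65 and -0.92, which widens its spread.

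For 9 genes 2 probes were kept, and these often went different ways. Their correlation over the 21 arrays ran from -0.671 (Rpl38) to 0.671 (Rps9), a description of arrays that share stage. The dimmer probe of Rpl38 rose by 0.86 in PREANTRAL minus PRIMARY (adjusted p = 0.00321 over all probes) and fell by 0.73 in ANTRAL minus PREANTRAL (adjusted p = 0.0155), where the brighter one had -0.10 and 0.08. The dimmer probes of Rps19, Rpl31, Rps24 and Rpl21 also rose in PREANTRAL minus PRIMARY, by 1.08, 0.65, 0.69 and 0.79 (adjusted p between 0.00134 and 0.0208), and the brighter ones had 0.04, 0.18, -0.07 and 0.18, none of them past the threshold. The dimmer probe of Rps19 was highest in ANTRAL follicles. It had 1.48 in ANTRAL minus PRIMARY (adjusted p = 5.85e-05) and 0.40 in ANTRAL minus PREANTRAL (adjusted p = 0.274). Some calls given above were not shared by the dimmer probe. Those of Rpl31 and Rps9 had -0.15 (adjusted p = 0.522) and -0.33 (adjusted p = 0.158) in ANTRAL minus PREANTRAL. That of Rpl27a, detected on 6 arrays, had 0.10 in PREANTRAL minus PRIMARY (adjusted p = 0.754). That of Rpl21 did fall in PRIMARY minus PMD4, by 0.61 (adjusted p = 0.0114). A probe may read 1 transcript form or, in a family with many processed copies in the genome, more than 1 locus, and this was not tested.

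Among cytosolic ribosomal proteins whose symbols lie outside the naming rule, 2 of 5 fell in ANTRAL against PREANTRAL follicles, where 14.7% of all genes fell. Rps3a1, of the small subunit, fell by 0.90 (SE 0.20, adjusted p = 0.00165), and Fau, which joins a ubiquitin-like protein to the S30 protein, fell by 0.55 (SE 0.16, adjusted p = 0.0131). Rpsa had 0.19, Rpl7l1 -0.29 and Rpl22l1 0.62, none past the threshold. None of the 5 passed limma's test in PREANTRAL minus PRIMARY, with 1 at an unadjusted p under 0.05.

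The machinery that makes and uses ribosomes was read from lists drawn up for this purpose. Of 36 genes of ribosome biogenesis, 8 fell and none rose in ANTRAL against PREANTRAL follicles, with a median of -0.35. Riok1, a kinase of late small-subunit maturation, fell by 1.45 (SE 0.34, adjusted p = 0.00265), and Tcof1, a nucleolar partner of RNA polymerase I, fell by 0.95 (SE 0.18, adjusted p = 0.000478). Of 9 genes of RNA polymerase I, which transcribes the ribosomal RNA, 2 fell: Cd3eap by 0.76 and Ubtf by 0.66. Among 7 elongation and termination factors Eef1b2 (-0.66) and Eef1d (-0.48), which reload the factor that brings tRNA, fell. None of 26 initiation factors and none of 10 genes of mTOR and S6 kinase signalling passed limma's test in this comparison, with 3 and 2 at an unadjusted p under 0.05. Of 14 TOP mRNAs that are no members, 4 fell and 1 rose, Nap1l1 by 0.62 among the falls and the intermediate filament gene Vim by 1.25 as the rise. The other falls of that list were Eef1b2, Eef1d and Fau, which are counted in the lists above as well. These counts are to be read beside the 14.7% of all genes that fell.

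In PREANTRAL against PRIMARY follicles 6 of the 36 biogenesis genes rose and 1, Eif6, fell, where 18% of all genes rose and 17.8% fell. Mrto4, needed for assembly of the ribosomal stalk, rose by 0.82 (SE 0.16, adjusted p = 0.000309) and Nop2, an rRNA methyltransferase, by 0.73 (SE 0.18, adjusted p = 0.0023). Initiation factors went both ways, with 5 of 26 up (Eif4g2 by 1.10, Eif5a by 0.84) and 5 down, Eif6 again among them, which is near the shares over all genes. Of the signalling list, Eif4ebp1, which holds back cap-dependent initiation, rose by 0.65 (SE 0.25, adjusted p = 0.0429) and Mtor fell by 0.80 (SE 0.19, adjusted p = 0.00202). For comparison, of 64 genes for mitochondrial ribosomal proteins 15 rose and none fell in PREANTRAL against PRIMARY follicles (median 0.20), where 18% of all genes rose and 17.8% fell, and 2 rose and 5 fell in ANTRAL against PREANTRAL follicles (median -0.11), where 13% of all genes rose and 14.7% fell. Of these 64, 18 had their highest stage mean in ANTRAL follicles and 26 in PREANTRAL follicles, against 0 and 10 of the 46 cytosolic members, with Rplp1 tied between PREANTRAL and PRIMARY; the difference between the families was not tested.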

How the data were processed

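RNA of 21 samples was amplified and hybridised to Illumina mouse bead arrays of 25697 probes. The authors deposited the average bead signal as intensity, neither background corrected nor normalised, and beside it a detection p-value, per the file headers. They also deposited log2 values, whose normalization and filter are not given in the sources used here; the submitters' processing notes name limma. The 2 detection columns of the antral arrays that share a name were not used, and their detection p was set by rank of signal from the mean of the 19 other arrays.

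The signal was corrected for background and quantile normalised by neqc (limma 3.58.1, R 4.3.3; offset 16, then log2). Probes with a detection p under 0.05 on at least 3 arrays were kept (15923). Each gene took its probe with the highest mean, which gave 10112 genes. A single limma fit to the 21 arrays estimated each stage's mean, with moderated tests, two-sided, Benjamini-Hochberg over all genes and a threshold of 0.05. Log2 fold changes are the first-named stage minus the second. The script was tested on simulated data.

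Named members were, per comparison, the 3 with the largest rise and the 3 with the largest fall past the threshold, the 5 with the widest and the 5 with the narrowest range over stages, and the reference genes, relatives and proteins of other names. Other members named, the split at a mean of 14 and the comparison of the 2 arrays that stood apart were chosen after their values were seen. The members and lists were chosen with earlier results of these data known. Probe symbols came from the array's annotation, and 21846 Entrez identifiers matched RefSeq. Precision is limited by there being 3 arrays a stage. Alternatives were median scaling, no background correction, the authors' values, no filter, other choices of probe, the spread of the compared stages only, a replicate block and leaving out arrays.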

Additional observations from a re-analysis of the deposited data

How the results depend on the processing

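No call of a single member changed direction under any alternative run for it, and Rpl13a (in both comparisons with PRIMARY), Rpl30 (PREANTRAL minus PRIMARY) and Rpl37a (ANTRAL minus PREANTRAL) stayed past the threshold under all 16. With median scaling 8 members differed over the stages, and 1 changed in PRIMARY minus PMD4, 1 in MLS minus TLS, 4 in ANTRAL minus PREANTRAL, 1 in ANTRAL minus PRIMARY and 2 in PREANTRAL minus PRIMARY; the median of the members turned to 0.07 in PRIMARY minus PMD4 and to 0.02 in PREANTRAL minus MLS. Without background correction the count was 1 in PREANTRAL minus MLS and 11 in ANTRAL minus PRIMARY. In the authors' values it was 33 over the stages, 2 in TLS minus PRIMARY, 2 in PREANTRAL minus MLS, 13 in ANTRAL minus PRIMARY and 21 in ANTRAL minus PREANTRAL. Without the detection filter it was 9 in ANTRAL minus PRIMARY. Taking each probe alone gave 2 in PREANTRAL minus MLS and 13 in PREANTRAL minus PRIMARY, and the spread of the compared stages alone gave 1 in PREANTRAL minus MLS. Without PMD3 repeat 2 and TLS repeat 2 the counts were 1 in PREANTRAL minus MLS and 9 in ANTRAL minus PRIMARY. An alternative chosen after seeing the data left out PREANTRAL repeat 2 and PRIMARY repeat 3, with 8 in ANTRAL minus PREANTRAL, 1 in ANTRAL minus PRIMARY and 5 in PREANTRAL minus PRIMARY; the other such alternative, the ranks of ANTRAL repeat 1 for repeats a and b, left each count as it was. The cause of these moves was not tested. Leaving out 1 array at a time gave 14 to 19 members over the stages, 0 to 0 in PMD4 minus PMD3, 1 to 4 in PRIMARY minus PMD4, 0 to 1 in each of TLS minus PRIMARY, MLS minus TLS and PREANTRAL minus MLS, 6 to 16 in ANTRAL minus PREANTRAL, 1 to 6 in ANTRAL minus PRIMARY and 3 to 8 in PREANTRAL minus PRIMARY.

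With the replicate number as a block, which drops ANTRAL repeats a and b because they have no number, the counts were 7 over the stages, 1 in MLS minus TLS, 1 in ANTRAL minus PREANTRAL and 1 in ANTRAL minus PRIMARY, with the lone antral array assumed to vary like the other stages. The numbers do not pair the samples by the labels: deviations of same-numbered arrays from their stage means correlated at -0.184 to 0.721 over 45 pairs, and 10 of 18 arrays correlated best with their own number. The step that set the detection p of 2 antral arrays, tried on the 19 others, shared 96.4% to 99.9% of their calls.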
